A study of Oryza sativa with 14 samples.

Results

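The 6 genes described here encode enzymes that methylate cytosine in DNA and the remodellers that open chromatin for them. They were chosen by locus identifier from a table of 38978 rice genes, without a threshold on their values. Earlier results of these data were known when they were chosen. There are 4 methyltransferase genes. MET1B (Os07g0182900, chromosome 7), OsCMT2 (Os05g0224800, chromosome 5) and DRM2 (Os03g0110800, chromosome 3) carry these symbols in the deposited table. Os10g0104900 on chromosome 10 carries the symbol CMT2 there and is described as a chromomethylase that silences transposable elements. It is the gene known in rice as OsCMT3a, and is called the CMT3-type gene below to keep it apart from OsCMT2. The DDM1-type remodeller genes are OsDDM1a (Os09g0442700, chromosome 9) and OsDDM1b (Os03g0722400, chromosome 3).

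RNA was measured by RNA-seq in seedlings of wild type rice (WT, cultivar Kitaake) and of osnat10, and each genotype had 3 biological replicates. The series' title names N-acetyltransferase 10 as the enzyme that makes N4-acetylcytidine (ac4C) in RNA and ties it to photosynthesis. All plants grew in Yoshida nutrient solution under short days of 10 h light and 14 h darkness. No source used here gives the osnat10 allele, the number of lines or the age of the plants, and the tissue is named only as seedlings. Another 8 libraries of an ac4C pull-down assay and its inputs were not analysed here.

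Plant DNA is methylated at cytosines in CG, CHG and CHH contexts, where H is any base but G. From work mostly in Arabidopsis, MET1 copies CG methylation onto the new strand after replication, CMT3 keeps CHG methylation where histone H3 carries lysine 9 methylation, CMT2 acts on CHH sites of long, compact transposons, and DRM2 is guided to its targets by small RNAs. DDM1 is a remodeller of the SNF2 family that lets these enzymes reach DNA wrapped in nucleosomes. In rice, the MET1B enzyme (also written OsMET1-2) is the main CG maintenance enzyme, and the genome holds a pair of DDM1 copies.

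The whole reads recovered from the RPKM values came to 13688629 to 15583776 per library. WT replicate 1 stood apart in antenna (light-harvesting) genes, whose summed level was 14920 RPKM there, 1532 and 1116 RPKM in the other WT libraries, and 4753 to 5200 RPKM in osnat10. Of 19 antenna genes 3 were at 0 in every library. RPKM are reads per kilobase of gene, scaled to the size of the library. No gene was matched to OsNAT10 by symbol or description, so the targeted gene was not analysed here.

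The CG maintenance gene MET1B stood at 3.09, 3.78 and 2.48 RPKM in WT replicates 1 to 3 and at 6.72, 3.98 and 5.99 RPKM in osnat10. Every osnat10 library lay above every WT library, though osnat10 replicate 2 exceeded WT replicate 2 only slightly. In bulk RNA, here and below, more or fewer cells of a type and more or less RNA per cell cannot be told apart. The means were 3.12 ± 0.651 and 5.56 ± 1.42 RPKM (SD, n = 3 per genotype), a 1.79-fold difference. In limma, fitted over all genes on log2(RPKM + 0.5), the log2 fold change was 0.73 (95% interval 0.11 to 1.36) with an adjusted p of 0.20, so MET1B did not pass the threshold of 0.05. The authors' deposited table, with the column names of DESeq2, gives MET1B a log2 fold change of 0.72 (SE 0.29) and an adjusted p of 0.12.

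The CMT3-type gene Os10g0104900 measured 5.54, 8.81 and 5.85 RPKM in the WT libraries and 15.1, 11.0 and 15.7 RPKM in those of osnat10. The genotypes did not overlap, and again the lowest osnat10 value came from replicate 2. Its mean was 2.07-fold higher in osnat10, 14.0 ± 2.56 against 6.73 ± 1.81 RPKM (SD, n = 3). The limma log2 fold change was 1.01 (95% interval 0.45 to 1.57, adjusted p = 0.11). In the authors' deposited DESeq2 table the gene was called higher, with a log2 fold change of 0.95 (SE 0.26) and an adjusted p of 0.0078.

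OsCMT2, the CHH-type chromomethylase gene, showed no such separation. It measured 28.8, 45.7 and 35.2 RPKM in the WT libraries and 32.6, 33.0 and 28 RPKM in those of osnat10. The osnat10 libraries fell inside the WT range except replicate 3, which lay just under WT replicate 1. The limma log2 fold change was -0.20 with a 95% interval of -0.67 to 0.26 (adjusted p = 0.61). The authors' deposited table gives OsCMT2 -0.32 (DESeq2 adjusted p = 0.44).

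DRM2, the enzyme of RNA-directed methylation, measured 3.14, 3.10 and 2.90 RPKM in the WT libraries and 2.93, 3.10 and 2.58 RPKM in those of osnat10. Its SD was the smallest of the 6 genes in both genotypes, at 0.13 and 0.27 RPKM around means of 3.05 and 2.87 (n = 3). The ranges overlapped, and the limma log2 fold change of -0.08 had a 95% interval of -0.57 to 0.42 (adjusted p = 0.88). For DRM2 the authors' deposited table gives -0.20 (DESeq2 adjusted p = 0.77). DRM2 was also the member with the fewest reads, 102 to 123 per library, against 151 to 1220 for the other members.

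OsDDM1a had the largest log2 fold change of the 6 genes, though not the largest difference in RPKM. It measured 2.84, 4.34 and 3.15 RPKM in the WT libraries and 8.15, 7.51 and 8.55 RPKM in those of osnat10. The lowest osnat10 library lay well above the highest WT library, and the osnat10 libraries lay close together. The mean was 2.34-fold higher, 8.07 ± 0.525 against 3.45 ± 0.793 RPKM (SD, n = 3). In limma the log2 fold change was 1.14 (95% interval 0.62 to 1.65), and the adjusted p of 0.082 missed the threshold. Without WT replicate 1, the library with the high antenna genes, limma called OsDDM1a higher (log2 fold change 1.03, adjusted p = 0.027), in a fit that called 2713 genes. The other 5 genes stayed uncalled without that library, with log2 fold changes of 0.74 for MET1B, 0.89 for the CMT3-type gene, -0.36 for OsCMT2, -0.06 for DRM2 and 0.26 for OsDDM1b. Over all 13 alternative limma fits the adjusted p of OsDDM1a ran from 0.027 to 0.38. The authors' deposited DESeq2 table called OsDDM1a higher, with a log2 fold change of 1.13 (SE 0.23) and an adjusted p of 9.3e-05.

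Its paralog OsDDM1b measured 7.67, 10.3 and 5.95 RPKM in the WT libraries and 10.3, 9.16 and 9.14 RPKM in those of osnat10. All osnat10 values lay within or at the top of the WT range. The limma log2 fold change was 0.27 with a 95% interval of -0.26 to 0.80 (adjusted p = 0.55). That interval still admits a moderate increase. In the authors' deposited table the log2 fold change of OsDDM1b was 0.15 (DESeq2 adjusted p = 0.83).

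**Figure D1:**
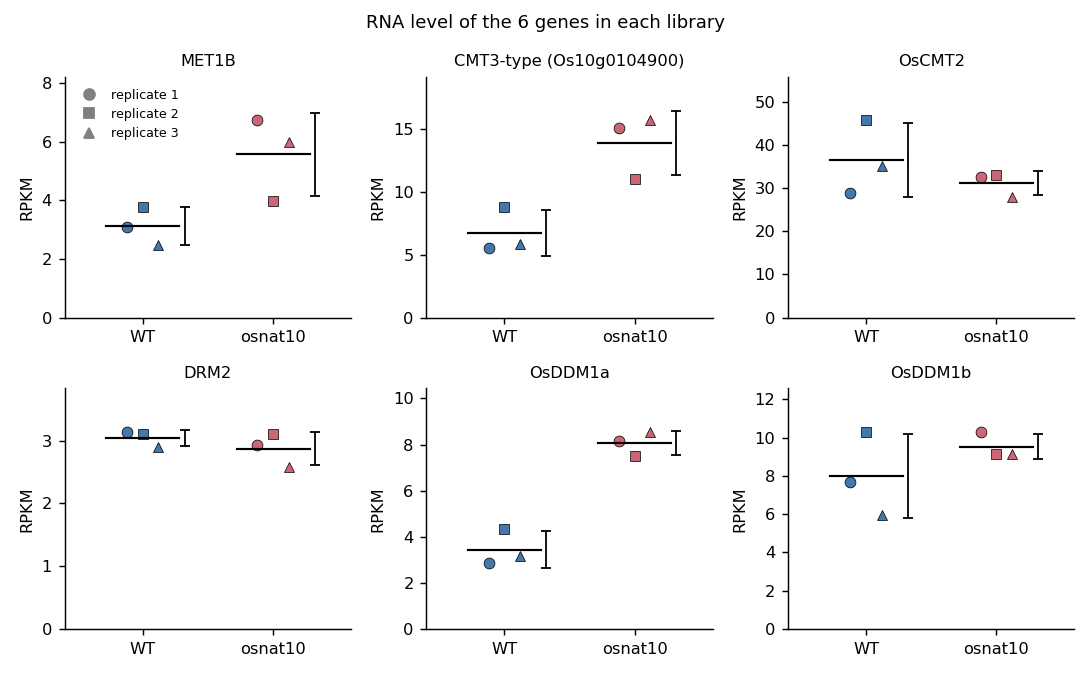
RPKM (y axis, from 0) of each of the 6 genes in the 3 WT (blue) and 3 osnat10 (red) libraries; marker shape gives the replicate number, lines the means and bars the SD. MET1B, the CMT3-type gene and OsDDM1a have all osnat10 points above all WT points, while OsCMT2, DRM2 and OsDDM1b overlap.

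Across the 6 genes, limma thus called 0 of 6 in either direction, against 0.152% of the 24380 tested genes (37 genes, of which 30 were higher, 0.123%, and 7 lower, 0.0287%, in osnat10). That split depended on scaling, with 51 higher and 57 lower under median of ratios scaling and 28 and 24 after quantile normalisation. At an unadjusted p under 0.05, limma gave 3 of the 6 genes higher, against 13.6% of tested genes. The same 3 genes had all osnat10 libraries above all WT libraries, which was so for 17.2% of tested genes. A limma log2 fold change of 1 or more was found for 2 of the 6, OsDDM1a and the CMT3-type gene, against 6.06% of tested genes. The authors' deposited table called 2 of 6, both higher, against 6.20% of the 27104 genes with an adjusted p in either direction, 2.42% higher and 3.79% lower. The median log2 fold change of all tested genes was 0.11, and 0.01 and -0.03 under the median of ratios and quantile rescalings. Each member kept the sign of its log2 fold change in all 13 alternative fits, both rescalings included. As the members were chosen with earlier results of these data known, their counts beside all genes are no test of the set.

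**Figure D2:**
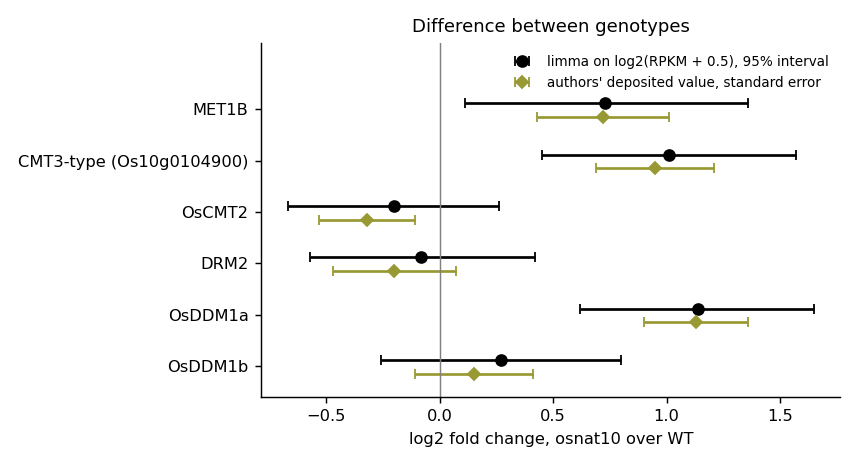
Log2 fold change of osnat10 over WT (x axis) for the 6 genes; black points are limma estimates with 95% intervals, and diamonds the authors' deposited values with their standard errors. The limma intervals of MET1B, the CMT3-type gene and OsDDM1a lie above 0 before adjustment over all genes, and those of OsCMT2, DRM2 and OsDDM1b include 0.

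The DDM1 pair was compared within each library, where library scaling cancels in the RPKM ratio. OsDDM1a made up 27.1%, 29.6% and 34.6% of the summed RPKM of the pair in WT and 44.3%, 45% and 48.3% in osnat10. The log2 ratio of OsDDM1a to OsDDM1b, each with a pseudocount of 0.5, was -1.09 ± 0.24 in WT and -0.23 ± 0.12 in osnat10 (SD, n = 3). The difference of 0.87 gave p = 0.10 in a two-sided exact permutation test over the 6 libraries, the smallest p that 3 against 3 allows. The genotypes did not overlap in this ratio, and leaving out any 1 library gave differences of 0.77 to 1.0. How the authors' counting treated reads shared by similar copies is not given in the sources used here, so the split between OsDDM1a and OsDDM1b, and between MET1B and its copy MET1A, carries that uncertainty.

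Shares within a library were also compared, among the 4 methyltransferase members only. The 11 other methyltransferase genes are left out of these shares. They summed to 25.89 to 42.93 RPKM in WT and 32.33 to 32.97 RPKM in osnat10. The CMT3-type gene took 13.6%, 14.4% and 12.6% of the summed RPKM of the 4 methyltransferase genes in WT and 26.4%, 21.6% and 30.1% in osnat10. OsCMT2 took 71.0%, 74.4% and 75.8% in WT and 56.8%, 64.6% and 53.5% in osnat10. Neither share overlapped between genotypes. The shares are parts of the same sum, so a higher share of the CMT3-type gene lowers that of OsCMT2. The RPKM of OsCMT2 itself overlapped between genotypes. How often such shares separate for other genes was not examined. The share of MET1B was 5.34% to 7.63% in WT and 7.79% to 11.7% in osnat10, while that of DRM2 overlapped (5.05% to 7.75% and 4.93% to 6.07%). The sum itself overlapped, at 49.5 ± 10.7 RPKM in WT and 53.6 ± 3.35 RPKM in osnat10 (SD, n = 3). The RPKM of the CMT3-type gene was 0.192, 0.193 and 0.166 times that of OsCMT2 in WT and 0.464, 0.334 and 0.562 times in osnat10. These shares and ratios were not tested.

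**Figure D3:**
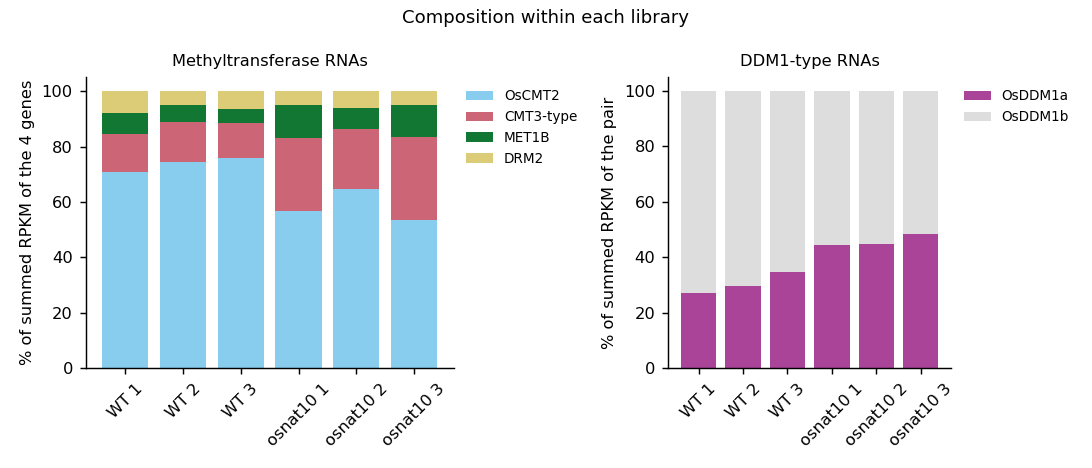
Left, share of each methyltransferase gene in the summed RPKM of the 4 genes (y axis, %) in each library; right, share of OsDDM1a and OsDDM1b in the sum of the pair. The CMT3-type share is at most 14.4% in WT and at least 21.6% in osnat10, and the OsDDM1a share at most 34.6% in WT and at least 44.3% in osnat10.

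Levels per length put OsCMT2 first in both genotypes, at 36.5 ± 8.53 RPKM in WT and 31.2 ± 2.8 RPKM in osnat10 (SD, n = 3). In WT it was followed by OsDDM1b (7.98 RPKM) and the CMT3-type gene (6.73 RPKM), whose ranges overlapped. OsDDM1a (3.45 RPKM), MET1B (3.12 RPKM) and DRM2 (3.05 RPKM) came last, each overlapping its neighbour in that order. In osnat10 the order was OsCMT2, the CMT3-type gene, OsDDM1b, OsDDM1a, MET1B and DRM2, and no neighbours overlapped. The level of OsCMT2 depends on its gene model, since the reads per RPKM make it 0.435 times as long as that of the CMT3-type gene. The locus next in number, Os05g0224900 (symbol OsCMT3 in the table), has the same description as OsCMT2 and 0.685 times the length of the CMT3-type gene. It measured 7.42, 9.01 and 10.7 RPKM in the WT libraries and 7.76, 8.75 and 7.13 RPKM in those of osnat10, with overlapping ranges.

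MET1 enzymes act on newly copied DNA, and markers of replication varied between libraries. A list of 68 tested replication and core histone genes had a median log2 level above the library median of 1.11, 1.37 and 0.86 in WT and 1.89, 1.10 and 1.68 in osnat10. Thus osnat10 replicates 1 and 3 were high and replicate 2 lay within the WT range. Of the 87 genes matched, 14 were at 0 in every library. The summed level of the list ran from 2284 to 2969 RPKM in WT and from 2608 to 4599 RPKM in osnat10. In limma 0 of the 68 were called and 28 were higher at an unadjusted p under 0.05, against 13.6% of all tested genes. Of the 68, 13 had all osnat10 libraries above WT, a share near the 17.2% of all genes. The authors' deposited table called 5 of the list higher and 0 lower, against 2.42% and 3.79% of its genes with an adjusted p. In limma, the smallest p values of the list came from histone genes. Os12g0438000 (H2A) averaged 31.0 ± 6.07 RPKM in WT and 56.1 ± 5.68 in osnat10 (limma adjusted p = 0.093). Os01g0866200 (H3) averaged 48.4 ± 7.27 and 133 ± 56.5 RPKM (limma adjusted p = 0.11). Os07g0545300 (H2A) averaged 30.9 ± 6.35 and 50.8 ± 7.73 RPKM (limma adjusted p = 0.13). Of these, the authors' deposited table called only Os01g0866200 (DESeq2 adjusted p = 0.0047).

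In osnat10 replicate 2 the 6 genes stood at different heights. Relative to the library median and to the WT mean, MET1B lay 0.83 and 0.72 (log2) higher in osnat10 replicates 1 and 3 and 0.22 higher in replicate 2. WT replicates 1 and 2 reached 0.16 and 0.18 on that measure, so MET1B in osnat10 replicate 2 was close to them. The CMT3-type gene lay 0.95, 0.59 and 1.05 higher in osnat10 replicates 1 to 3, above the 0.31 of WT replicate 2. OsDDM1a lay 0.96, 0.94 and 1.08 higher in osnat10 replicates 1 to 3. Without osnat10 replicate 2 the limma log2 fold changes were 0.94 for MET1B, 1.17 for the CMT3-type gene and 1.18 for OsDDM1a (adjusted p of 0.27, 0.22 and 0.23). The part of dividing cells in the values of MET1B, the CMT3-type gene and OsDDM1a was not tested.

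**Figure D4:**
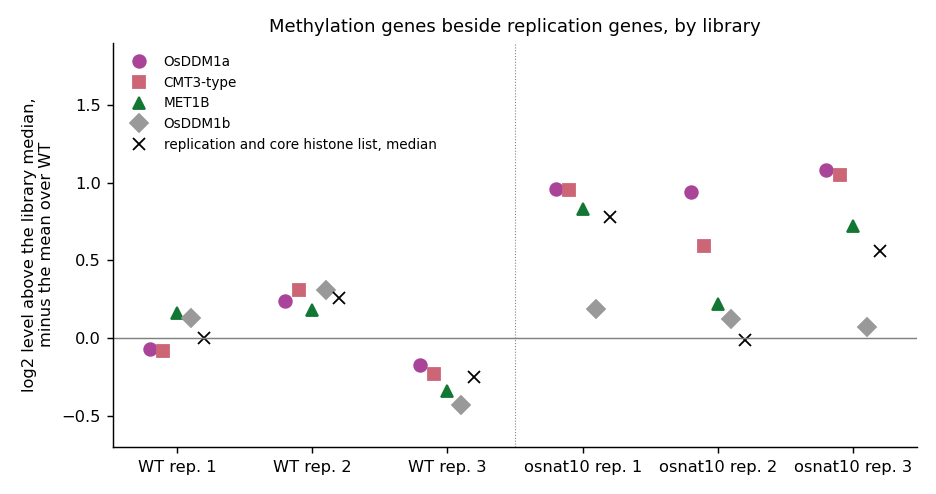
Log2 level above the library median, minus the mean of the WT libraries (y axis), for 4 of the genes and for the median of the replication and core histone list (crosses) in each library. In osnat10 replicate 2 the list lies at -0.01 and MET1B at 0.22, while OsDDM1a lies at 0.94.

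Other tissue markers also differed between libraries. The root list kept 10 genes, after 12 other matches were removed as unrelated annotations once values had been seen. Its median log2 fold change relative to all genes was 1.26, and 0.15 as first written. Of the 10 root markers, 7 had log2 fold changes above 0, against 59.9% of all tested genes. Their summed level ran from 448.2 to 809 RPKM in WT and from 988.9 to 1196 RPKM in osnat10, with none of them at 0 in all libraries. The silicon channel gene LSI6 and the root protein genes RCc2 and RCc3 had the smallest p values, with limma adjusted p of 0.076, 0.085 and 0.11. The authors' deposited table called these 3 higher and 1 marker lower, the silicon transporter gene LSI3, named here after its values were seen. Of all genes with an adjusted p there, 2.42% were called higher and 3.79% lower. LSI3 averaged 20.9 ± 7.45 RPKM in WT and 9.83 ± 0.621 in osnat10, without overlap (limma adjusted p = 0.12). The silicon transporter genes LSI1 (169 to 291 RPKM in WT and 145 to 186 in osnat10) and LSI2 (96.5 to 181 and 85.1 to 124 RPKM) also had lower means in osnat10, with overlapping ranges. Without WT replicate 1, limma called 6 root markers higher and 1 lower. That fit called 1532 of all 24380 tested genes higher and 1181 lower. Of 15 tested antenna genes, 12 had log2 fold changes above 0, 0 were called by limma and no gene separated the genotypes. Without WT replicate 1, limma called 10 of the 15 higher, in the same fit that called 1532 of all 24380 tested genes higher. The median log2 fold change of the antenna list relative to all genes was 0.82, and it was 2.21 without WT replicate 1, 0.25 without WT replicate 2 and -0.01 without WT replicate 3. CP24, CAB1R and CAB2R had the smallest p values there, with limma adjusted p of 0.32, 0.35 and 0.41. Relative to the library median and the WT mean, the antenna list lay 3.44 (log2) higher in WT replicate 1, where the 6 genes lay between -0.17 and 0.19. The part of root or green tissue in the values of the 6 genes was not tested.

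The remaining cytosine methyltransferase genes, 11 in the table, either overlapped between genotypes or were near 0. MET1A (Os03g0798300), the second MET1 copy, measured 0.629, 0.809 and 0.583 RPKM in the WT libraries and 0.504, 0.787 and 0.889 RPKM in those of osnat10, from 48 to 91 reads per library. MET1B thus exceeded MET1A 4.25- to 4.92-fold in WT and 5.06- to 13.3-fold in osnat10. OsDRM3, a catalytically divergent DRM relative in Arabidopsis whose locus here is described as similar to a Shaggy-related kinase, averaged 12.1 ± 4.27 and 9.54 ± 0.418 RPKM. OsDNMT2, a family better known for methylating transfer RNA, averaged 11.9 ± 2.80 and 12.4 ± 0.909 RPKM, and Os05g0313900, described as similar to Zmet3, averaged 1.99 ± 0.917 and 1.92 ± 0.140 RPKM. None of the 5 tested genes had an unadjusted limma p under 0.05 (adjusted p of 0.62 to 0.97, Os05g0224900 included). OsCMT1 (Os03g0226800) had at most 0.175 RPKM and the OsDRM1a locus Os11g0109301 at most 0.09 RPKM in any library. The other 4 loci (Os03g0226901, also named OsCMT1, Os11g0109200, also named OsDRM1a, OsDRM1b and Os11g0139550) were at 0 in every library.

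DNA demethylase genes, which encode glycosylases that cut 5-methylcytosine out of DNA, gave no call in limma or in the authors' deposited table. ROS1A (Os01g0218032) measured 25.7, 27.4 and 31.9 RPKM in the WT libraries and 30.2, 29.0 and 28.5 RPKM in those of osnat10, nearly level. ROS1c averaged 4.20 ± 1.61 RPKM in WT and 2.71 ± 0.109 in osnat10 (limma adjusted p = 0.40). The ROS1D loci Os05g0446600 and Os05g0446550 averaged 2.49 ± 0.921 and 1.57 ± 0.222 RPKM, and 8.89 ± 2.93 and 9.16 ± 4.53 RPKM, respectively. ROS1B was at 0 in every library.

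The histone methyltransferase gene SDG714 (Os01g0927000), whose enzyme marks lysine 9 of histone H3 in rice, the mark that CMT3 enzymes read, was among the 2 genes nearest to OsDDM1a in pattern over the 6 libraries. It measured 1.94, 3.29 and 1.97 RPKM in the WT libraries and 5.63, 5.37 and 5.73 RPKM in those of osnat10, without overlap. The limma log2 fold change was 1.10 (SE 0.25, adjusted p = 0.099), and the authors' deposited DESeq2 table called SDG714 higher (log2 fold change 1.12, adjusted p = 0.0037). It was the 1 tested gene of 3 kept as methylation readers and H3 lysine 9 enzymes. Another 14 matches were removed as unrelated annotations after values had been seen. As first written, the list had 13 tested genes and a median log2 fold change of -0.06 relative to all genes.

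The methyl donor cycle, which makes S-adenosylmethionine and clears its by-product, lay mostly higher in osnat10. Of 9 tested genes 8 had log2 fold changes above 0 (59.9% of all tested genes), 7 had all osnat10 libraries above WT (17.2% of all), and the median log2 fold change was 0.67 against 0.11 for all genes. Limma called 0 of the 9, with 6 higher at an unadjusted p under 0.05, against 13.6% of all tested genes. The authors' deposited table called 4 higher, against 2.42% of its genes with an adjusted p. The methionine synthase gene Os12g0623900 averaged 188 ± 24.0 RPKM in WT and 384 ± 13.3 in osnat10 (limma log2 fold change 1.03, adjusted p = 0.071). The S-adenosylmethionine synthetase gene OsSAMS1 averaged 157 ± 12.3 and 264 ± 9.52 RPKM (limma adjusted p = 0.093). Another methionine synthase gene, Os12g0624000, averaged 143 ± 42.6 and 255 ± 12.6 RPKM (limma adjusted p = 0.12).

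Small RNA machinery, which guides DRM enzymes and also silences RNA, had fewer genes above 0 than below. Of 22 tested genes 8 had log2 fold changes above 0, against 59.9% of all tested genes, and the median was -0.24 against 0.11 for all genes. Limma called 0, and none had an unadjusted p under 0.05. The authors' deposited table, in which 3.79% of genes with an adjusted p were called lower, called 2 of the list lower. These were the RNA-dependent RNA polymerase genes RDR1 (6.01 ± 4.52 RPKM in WT and 2.34 ± 0.358 in osnat10) and SHL2 (4.43 ± 1.77 and 2.38 ± 0.248), with adjusted p of 0.037 and 0.043 in the authors' deposited DESeq2 table. RDR1 measured 3.28, 11.2 and 3.52 RPKM in WT replicates 1 to 3, so its WT mean rests largely on replicate 2. Its osnat10 libraries measured 2.09 to 2.75 RPKM. SHL2 in WT replicate 1 (2.4 RPKM) lay within its osnat10 range (2.21 to 2.66 RPKM). RDR1 is known from antiviral silencing, and SHL2, the rice RDR6, from making trans-acting small RNAs. The argonaute gene OsAGO1d averaged 13.2 ± 4.06 and 8.89 ± 0.933 RPKM (limma adjusted p = 0.29).

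Other SNF2-family remodellers were close to all genes in their differences. Of 19 tested genes 11 had log2 fold changes above 0, near the 59.9% of all tested genes. The median was 0.03 against 0.11 for all genes, limma called 0, and the authors' deposited table called 0. The 3 with the smallest p were Os01g0367900, described as similar to SNF2L1 (24.6 ± 0.613 RPKM in WT and 33.7 ± 0.557 in osnat10), CHR744 (14.8 ± 2.76 and 9.78 ± 2.24) and Os07g0434500 (6.26 ± 0.991 and 8.48 ± 0.430), with limma adjusted p of 0.15, 0.22 and 0.29.

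**Figure D5:**
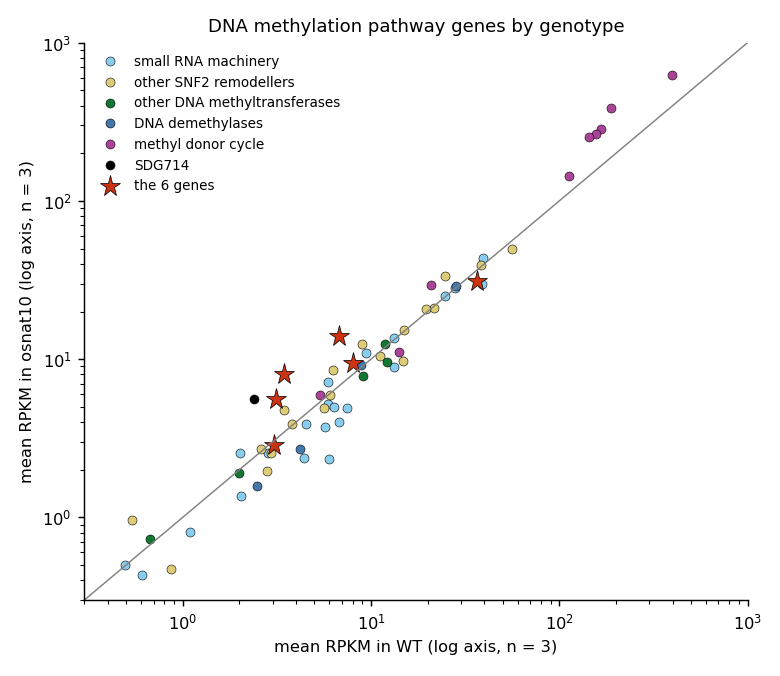
Mean RPKM in WT (x axis) against osnat10 (y axis), both log axes, n = 3 libraries each, for the 6 genes (stars) and the tested genes of the pathway lists; the line marks equal levels. The CMT3-type gene, OsDDM1a, MET1B and SDG714 lie above the line, as do most methyl donor cycle genes.

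Transposons are major targets of DNA methylation in plants. Of 45 tested genes with transposon-related annotation, 21 had log2 fold changes above 0, against 59.9% of all tested genes. Their median was -0.01 against 0.11 for all genes, and limma called 0. The authors' deposited table called 1 higher and 1 lower, against 2.42% and 3.79% of its genes with an adjusted p. In the authors' deposited table the higher was the harbinger-type gene Os10g0468250 (DESeq2 adjusted p = 0.037). It averaged 0.392 ± 0.292 RPKM in WT and 1.92 ± 0.337 in osnat10 (limma adjusted p = 0.093). The lower there was Os06g0271400, an En/Spm-type transposase gene (DESeq2 adjusted p = 0.001). That gene averaged 4.48 ± 2.36 RPKM in WT and 1.06 ± 0.318 in osnat10 (limma adjusted p = 0.11). The copia-type gene Os05g0400200 averaged 0.159 ± 0.103 and 0.791 ± 0.1 RPKM (limma adjusted p = 0.11). It had only 2, 4 and 1 reads in the WT libraries and 10, 13 and 11 in those of osnat10. Reads were also few for Os10g0468250, at 15, 11 and 2 in WT and 40, 55 and 42 in osnat10. ROS1c, the histone demethylase gene JMJ703 and the telomerase gene OsTERT are also in this list, by their descriptions. So are loci with the symbols OsCDKC and OsLEA11, described as similar to a transposon and a retrotransposon protein. These counts describe annotated genes only.

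The genes whose pattern over the 6 libraries was nearest to each member were found among 21896 genes, as the smallest root mean square difference of centred log2(RPKM + 0.5) values. For MET1B these were Os04g0625100 (0.0493) and the mitotic cyclin gene cycB2 (0.0518), which stood at 9.63, 12.9 and 8.68 RPKM in WT and 21.7, 13.6 and 19.4 RPKM in osnat10. For OsDDM1a they were the non-coding transcript rig (0.0444) and SDG714 (0.0687). For the CMT3-type gene they were an armadillo-fold gene, Os01g0259400 (0.0729), and a reticulon gene, Os02g0302900 (0.0844). OsDDM1b was nearest to Os07g0181500 (0.0269) and Os06g0251200 (0.0342), OsCMT2 to Os05g0158400 (0.0332) and Os01g0852500 (0.0339), and DRM2 to OsTPS6 (0.0302) and Os07g0546100 (0.0311). No test was made of these likenesses.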

How the data were processed

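The authors deposited RPKM for 38978 genes in 6 RNA-seq libraries, per the file headers. A second deposited table for 32190 genes holds the authors' mean normalised signal, log2 fold change with its standard error, Wald score (not used), p-value and adjusted p-value. In it, log2 fold change and RPKM difference had the same sign for each of the 1681 genes below an adjusted p of 0.05. Build IRGSP-1.0 and the tools deepTools, DESeq2 and STAR 2.5.3a appear in the submitters' processing notes, with no role. Strand use in counting is not given in the sources used here.

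Whole reads were recovered from RPKM steps and the authors' mean signal (99.98% of values above 0 whole within 0.05 reads). limma 3.58.1 in R 4.3.3 tested log2(RPKM + 0.5), with an intensity trend and no covariates, on 24380 genes with at least 0.5 RPKM in 3 of 6 libraries, two-sided, with Benjamini-Hochberg adjustment and calls under 0.05. The pseudocount makes fold changes of low genes too small. Where not called RPKM folds, fold changes are limma's. The fit and the read recovery were tested on simulated data. Replicates are biological per the series' design text, and whether they are separate plants or pools is not given there. Replicate numbers were not shown to pair libraries. Python 3.11.15, pandas 2.3.3 and matplotlib 3.10.9 handled tables and plots.

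The members and gene lists (word patterns on symbols and descriptions) were chosen with earlier results of these data known. Matches to unrelated annotations were removed after values had been seen. Named in a list were called genes (0 in any list), its 3 genes with the smallest p and, for other methyltransferases and demethylases, every gene. Nearest patterns were sought among tested genes with a mean of at least 1 RPKM. Alternatives were the pseudocount, the filter, scaling, a replicate block and leaving out each library.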

Additional observations from a re-analysis of the deposited data

How the results depend on the processing

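The number of genes limma called (37) was 108 under median of ratios scaling, 20 with a replicate block, and 8 to 2713 when 1 library was left out, 2713 without WT replicate 1, 985 without WT replicate 3 and 8 to 11 without any other library; it was 25 to 52 under the other alternatives. No member was called in any alternative except OsDDM1a without WT replicate 1. Leaving out 1 library gave log2 fold changes of 1.03 to 1.29 for OsDDM1a, 0.89 to 1.21 for the CMT3-type gene, 0.59 to 0.94 for MET1B, 0.09 to 0.46 for OsDDM1b, -0.36 to -0.03 for OsCMT2 and -0.13 to -0.01 for DRM2. Deviations of same-numbered libraries from their group means correlated at -0.06, -0.03 and 0.13, so the numbers are not shown to pair them; with the replicate block the adjusted p was 0.14 for OsDDM1a, 0.17 for the CMT3-type gene and 0.29 for MET1B. List medians are given relative to that of all genes. Leaving out 1 library gave -0.32 to -0.06 for other methyltransferases (-0.07 with all), -0.19 to -0.03 for other SNF2 genes (-0.08), 0.51 to 0.60 for the methyl donor cycle (0.56), 0.88 to 1.16 for SDG714, 0.96 to 1.55 for root markers (1.26) and -0.01 to 2.21 for antenna genes (0.82). Without WT replicate 1, limma called 2 methyl donor cycle genes higher, 2 small RNA genes lower, 2 transposon-related genes higher and 1 lower, and 1 replication gene in each direction; without WT replicate 3 it called 3 methyl donor cycle genes and 1 root marker higher. With no filter the methyl donor cycle stood at 0.43 and the 3 reader genes at 0.13. Before matches to unrelated annotations were removed, a choice made after seeing the data, the reader list stood at -0.06 and root markers at 0.15. The causes were not tested. Among the 6 genes DRM2 had the fewest reads (102 to 123 per library).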
